A study of Mus musculus with 11 samples.

Results

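Bone matrix genes were followed in C2C12 cells, a line of mouse myoblasts (strain C3H on the labels) that divides in rich medium and forms fused myotubes when serum is reduced. The 9 genes, of 20368 gene symbols in the expression tables, were chosen by name and, for Spp1, by its measured level. They encode the acidic matrix glycoproteins Spp1, Dmp1, Ibsp and Mepe, the collagen-binding glycoprotein Sparc, the osteocalcin Bglap2, the alkaline phosphatase Alpl, and the transcription factors Runx2 and Sp7. Spp1 is among the most abundant transcripts of these libraries and was selected on that FPKM, so the levels and changes below are descriptions. All 9 were in the tables. The expression libraries were polyA RNA of cells 4 h into differentiation in 2% horse serum with insulin, transferrin and selenium: DRRi (RNAi against RNA from the DRR, the distal regulatory region upstream of the MyoD gene), GFPi (RNAi against GFP), pHAN_DRR1.2 (overexpression of DRR RNA) and pHAN_GFP (overexpression of GFP). Chromatin immunoprecipitation with sequencing (ChIP-seq) gave 5 feature lists: MyoD, MyoG and H3K4me1, a histone mark of enhancers, in myotubes at 48 h of differentiation, and MyoD and H3K4me1 in proliferating myoblasts in 10% fetal bovine serum. Each group held 1 sample, so differences between groups lack any replicate check and no test across samples was possible. The RNA was taken at a time that matches neither ChIP-seq stage.

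Bone and dentin are built by cells that secrete a collagen scaffold and load it with acidic, phosphorylated glycoproteins, which bind calcium and, through an RGD motif, integrins. Runx2 and its downstream partner Sp7 (osterix) are the transcription factors that commit mesenchymal cells to the osteoblast fate. Alkaline phosphatase removes pyrophosphate, an inhibitor of mineral growth, and osteocalcin is a late product of mature osteoblasts. C2C12 cells are known to leave the muscle programme for the osteoblast programme under bone morphogenetic proteins (BMPs). Osteopontin, the product of Spp1, is also a secreted cytokine of many other cells, among them macrophages and regenerating muscle.

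The tables list FPKM (fragments per kilobase, scaled to each library's mapped fragments) for each coding sequence, summed here per symbol. The 24333 coding sequences summed to between 383311 and 411626 FPKM in each of the 4 libraries, and 10516 to 10694 symbols reached 1 FPKM in a library. RNA read depth is unknown, so the counting error of an FPKM is unknown. The tables call the DRR arms by another name than the labels do, and those columns were taken as DRRi and pHAN_DRR1.2 because every table is linked on the labels to a pair of samples, 1 of them named for GFP. The targeted RNA is not a coding sequence and its level is not analysed here. Myog, a transcription factor of muscle differentiation, had 2.61 FPKM in DRRi against 10.2 in GFPi, and 65.8 FPKM in pHAN_DRR1.2 against 26.3 in pHAN_GFP. Muscle markers were present, with Mef2c alone of the 7 myoblast markers near 0, at most 0.590 FPKM. The 7 summed to 374 FPKM in DRRi against 421 in GFPi, and to 883 FPKM in pHAN_DRR1.2 against 695 in pHAN_GFP. Des held most of each sum, with 231 FPKM in DRRi, 267 in GFPi, 577 in pHAN_DRR1.2 and 460.5 in pHAN_GFP. Of the 6 that averaged 1 FPKM or more, 5 were lower than their control in DRRi and 2 in pHAN_DRR1.2. The 9 macrophage and osteoclast markers summed to 5.27 FPKM in DRRi against 6.0 in GFPi, and to 5.56 FPKM in pHAN_DRR1.2 against 5.43 in pHAN_GFP, most of it from Cd14 (2.54 to 2.95 FPKM over the 4 libraries) and Cd68 (1.58 to 2.52 FPKM). The macrophage gene Emr1 was listed at 0 in all 4 libraries, as was the pan-leukocyte gene Ptprc in all but pHAN_GFP, at 0.0164. The 4 endothelial markers stayed at or below 0.120 FPKM in sum. In RNA from a whole culture, fewer cells of a type and less RNA per cell cannot be told apart.

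Among the matrix glycoproteins, Spp1 (osteopontin, chromosome 5, 104864130 to 104870072, mm9) was by far the most abundant. Spp1 had 1351 FPKM in DRRi against 1696 in GFPi. Its level was 3103 FPKM in pHAN_DRR1.2 against 2135 in pHAN_GFP. It ranked 23 in DRRi and 12 in GFPi, and 6 in pHAN_DRR1.2 and 7 in pHAN_GFP, among all 20368 symbols. The log2 change with a pseudocount of 1 FPKM was -0.33 for DRRi over GFPi and 0.54 for pHAN_DRR1.2 over pHAN_GFP, a ratio of 1.45 that lies just under the 1.5-fold used here to call a gene. In the authors' deposited table the main Spp1 coding sequence had a p of 0.328 for DRRi and 0.0794 for pHAN_DRR1.2 (q = 1.00 in each). Of 4 Spp1 coding sequences, 2 were above 0, and the lesser one carried 6.29% of the Spp1 FPKM in DRRi and 4.07% in GFPi, and 5.94% in pHAN_DRR1.2 and 5.85% in pHAN_GFP. The same coding sequence thus held most of the Spp1 signal in all 4 libraries.

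Dmp1 (dentin matrix protein 1, a phosphoprotein of osteocytes and odontoblasts, chromosome 5, 104631636 to 104643121) was the member furthest from its control. Dmp1 had 2.26 FPKM in DRRi against 8.94 in GFPi, a level 3.95-fold lower as a ratio of FPKM, with a log2 change of -1.61. Only 12 of 10577 genes had a lower log2 change in that comparison. It was called in the authors' deposited table (q = 0.00119). In the overexpression experiment Dmp1 had 15.3 FPKM in pHAN_DRR1.2 against 13.8 in pHAN_GFP, a log2 change of 0.13, and in the authors' deposited table its q was 1.00. Myog, given above, also lay lower in DRRi, and its part in the Dmp1 values was not tested. Dmp1 thus stood apart from its control in the RNAi libraries and lay close to it in the overexpression libraries.

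The other matrix glycoproteins, which sit between Dmp1 and Spp1 on chromosome 5, were listed at or near 0. Ibsp (bone sialoprotein, a nucleator of mineral) was listed at 0 in DRRi, GFPi and pHAN_DRR1.2 and at 0.0158 FPKM in pHAN_GFP. Mepe, a phosphoglycoprotein of osteocytes, was listed at 0 in all 4 libraries. The genome segment thus held an abundant gene at one end, a weakly expressed gene at the other and genes at or near 0 between, and Dspp, next to Dmp1 on its other side, was also listed at 0 in all 4 libraries.

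Sparc (osteonectin, chromosome 11, 55208003 to 55233582) binds collagen and calcium and is made by many mesenchymal cells besides osteoblasts. Sparc had 454 FPKM in DRRi against 795 in GFPi, a ratio of 0.571 and a log2 change of -0.81. In the overexpression experiment it had 1161 FPKM in pHAN_DRR1.2 against 1282 in pHAN_GFP, a log2 change of -0.14. Sparc was lower in the DRR arm of each experiment, past 1.5-fold in DRRi alone. In the authors' deposited table its q was 0.363 for DRRi and 1.00 for pHAN_DRR1.2.

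Osteocalcin was the only member higher than its control past 1.5-fold, and it was so in each experiment, at low levels. Bglap2 (chromosome 3, 88181658 to 88182621) had 2.26 FPKM in DRRi against 0.626 in GFPi (log2 change 1.01), and 1.59 FPKM in pHAN_DRR1.2 against 0.517 in pHAN_GFP (log2 change 0.77). As a ratio of FPKM it was 3.62-fold higher in DRRi and 3.07-fold higher in pHAN_DRR1.2, and with a pseudocount of 0.1 FPKM its log2 changes were 1.70 and 1.45. It reached the required mean of 1 FPKM only through the DRR arms. In the authors' deposited table its p was 0.0381 and its q 0.614 for DRRi, and its p was 0.0445 and its q 0.813 for pHAN_DRR1.2. Bglap2 has a near-identical paralog, Bglap, close by, and the division of shared reads between them is unknown. Its values are therefore uncertain.

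Of the enzyme and the osteoblast regulators, Runx2 alone exceeded 1 FPKM, and its level was close to that of its control. Runx2 (chromosome 17, in a locus of 44740950 to 45256233 that the tables share with Supt3h) had 12.6 FPKM in DRRi against 12.7 in GFPi, and 9.25 FPKM in pHAN_DRR1.2 against 9.42 in pHAN_GFP. Its log2 changes were -0.01 and -0.02. Its lesser coding sequence of 2 carried 7.83% of the Runx2 FPKM in DRRi and 6.55% in GFPi, and 12.1% in pHAN_DRR1.2 and 9.18% in pHAN_GFP. Sp7 (chromosome 15, 102187608 to 102196702) was at 0.0274 FPKM in DRRi and 0.0274 in GFPi, and at 0.105 FPKM in pHAN_DRR1.2 and 0.159 in pHAN_GFP. Alpl (chromosome 4, 137297647 to 137352292) was listed at 0 in DRRi and GFPi and was at 0.0472 FPKM in pHAN_DRR1.2 and 0.0120 in pHAN_GFP. The osteoblast enzyme and osterix were thus near 0 in libraries where Spp1, Sparc and Runx2 were not.

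**Figure D1:**
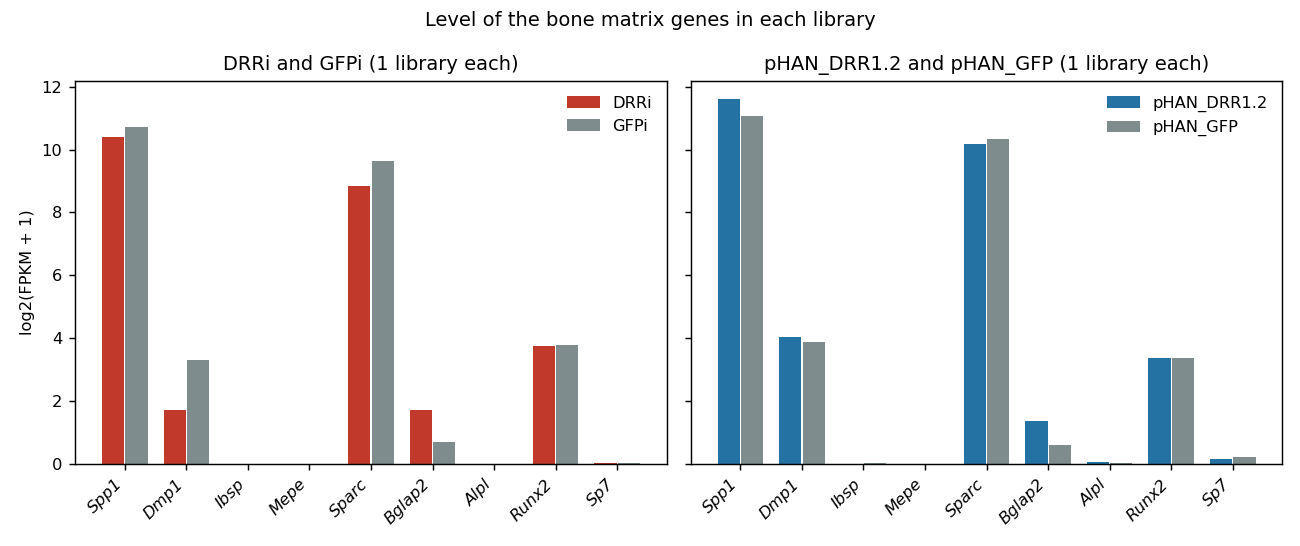
Level of each bone matrix gene as log2(FPKM + 1), 1 bar per library, with the DRR arm left of its GFP control and each table normalized on its own. Spp1 and Sparc tower over the other genes in all 4 libraries, Runx2 and Dmp1 are modest, and Ibsp, Mepe, Alpl and Sp7 lie at or near 0.

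In all, 5 of 9 members reached a mean of 1 FPKM in each table: Spp1, Dmp1, Sparc, Bglap2 and Runx2. In DRRi, 2 of these 5 were 1.5-fold or more lower, Dmp1 and Sparc, where 3.5% of the 10577 genes tested were. Bglap2 was the 1 member 1.5-fold or more higher, where 4.66% of genes were. In pHAN_DRR1.2, Bglap2 was 1.5-fold or more higher, where 1.38% of the 10699 genes tested were. There, 0 members were 1.5-fold or more lower, where 0.654% of genes were. Bglap2 reached a mean of 1 FPKM only through the DRR arms, so the filter favoured its being higher in each comparison. The authors' deposited tables called 1 member, Dmp1 in DRRi, where 0.292% of coding sequences were called lower and 0.349% higher. For pHAN_DRR1.2 the authors' deposited table called 0 members, where 0.304% of coding sequences were called lower and 0.489% higher. The median log2 change of the 5 was -0.33 in DRRi and 0.13 in pHAN_DRR1.2, against 0.02 over all genes in each comparison. Since the members were chosen with these values known, the counts describe them and support nothing further.

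**Figure D2:**
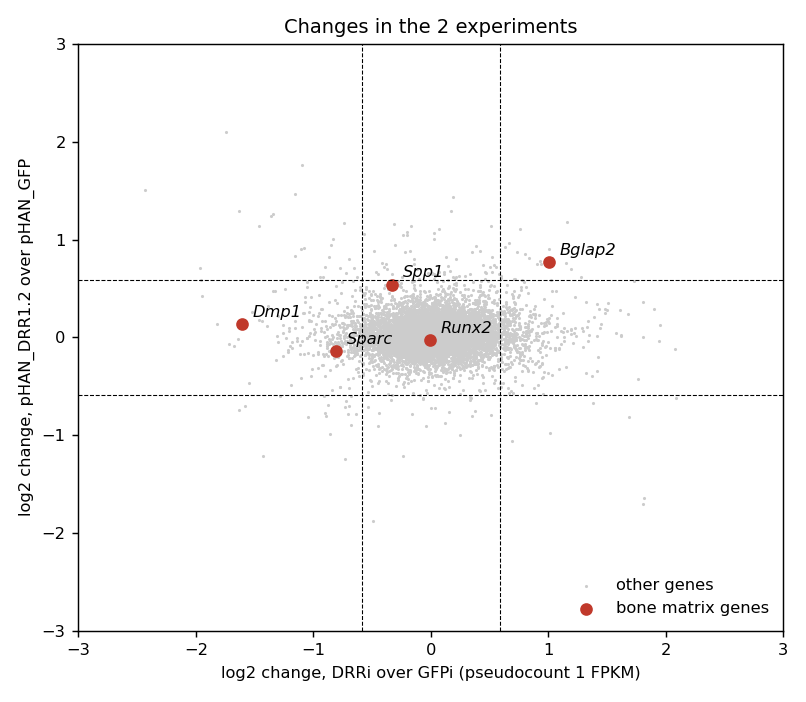
Log2 change of each gene in DRRi over GFPi (x axis) and in pHAN_DRR1.2 over pHAN_GFP (y axis), both with a pseudocount of 1 FPKM, with 1 gene beyond the axes not drawn and dashed lines at 1.5-fold. Dmp1 and Sparc lie left of the line in DRRi, Bglap2 lies beyond the lines in both experiments, Spp1 falls just short of the upper line and Runx2 sits at the centre.

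Genes whose pattern lay nearest to that of a member were sought among the 7928 genes that averaged 5 FPKM or more in each table, by Euclidean distance over the 2 log2 changes. Nearest to Spp1 was Timp1, an inhibitor of matrix metalloproteinases, at a distance of 0.031, with 121 FPKM in DRRi against 149 in GFPi and 260 FPKM in pHAN_DRR1.2 against 178 in pHAN_GFP. Eps8 (0.049) and Mgst3 (0.061) followed. Nearest to Dmp1 were Gas2 (0.15), Nme4 (0.15) and Dpy30 (0.18), and nearest to Sparc were Lrp4 (0.021), Pole4 (0.022) and Epha1 (0.026). A pattern of 2 values over 4 libraries is shared by many genes, so these names say nothing of function.

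Other genes of bone formation were read from lists, beside the shares of all genes given above. Of 20 further bone and mineral genes in the tables, 8 were measured in DRRi, with 1 higher, 1 lower and a median log2 change of 0.15. In pHAN_DRR1.2, 10 were measured, 0 were higher or lower and the median was 0.12. Mgp, the matrix Gla protein that inhibits calcification, had 120 FPKM in DRRi against 250 in GFPi (log2 change -1.05) and 736 FPKM in pHAN_DRR1.2 against 516 in pHAN_GFP (0.51). For Mgp the authors' deposited table lists q = 0.0372 in DRRi and q = 0.174 in pHAN_DRR1.2. Col1a1, a chain of type I collagen, the scaffold of bone, had 14.2 FPKM in DRRi against 4.32 in GFPi (1.51), and 22.5 FPKM in pHAN_DRR1.2 against 17.4 in pHAN_GFP (0.35). For DRRi its q in the authors' deposited table was 0.000146. Its partner chain Col1a2 was far more abundant and closer to its control, with 240 FPKM in DRRi, 217 in GFPi, 268 in pHAN_DRR1.2 and 300.3 in pHAN_GFP.

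Osteoblast transcription factors other than Runx2 and Sp7 had 8 of 13 members measured in each comparison and 0 past 1.5-fold, with medians of 0.10 in DRRi and 0.11 in pHAN_DRR1.2. The most abundant, Atf4, which also serves the amino acid response, had 173 FPKM in DRRi against 147 in GFPi and 264 FPKM in pHAN_DRR1.2 against 262 in pHAN_GFP. BMP signalling had 16 of 21 genes measured in DRRi and 15 in pHAN_DRR1.2, 0 past 1.5-fold, and medians of 0.10 and -0.07. Grem1, a secreted BMP antagonist, led this list with 152 FPKM in DRRi, 214 in GFPi, 186 in pHAN_DRR1.2 and 187 in pHAN_GFP. Of 9 receptor genes for osteopontin, 6 were measured in each comparison and 0 passed 1.5-fold. Itgb1, the shared beta chain of many matrix receptors, had 146 FPKM in DRRi against 198 in GFPi and 238 FPKM in pHAN_DRR1.2 against 210.0 in pHAN_GFP. Among the relatives of Sparc, 2 of 7 were measured in DRRi with 0 past 1.5-fold, and 2 of the 4 measured in pHAN_DRR1.2 were lower. These were Smoc2, a calcium-binding matricellular protein (9.85 FPKM in pHAN_DRR1.2 against 16.3 in pHAN_GFP, -0.67), and the proteoglycan Spock2 (23.2 against 35.5 FPKM in the same libraries, -0.59). The authors' deposited table gave them a q of 0.0399 and 0.0411.

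**Figure D3:**
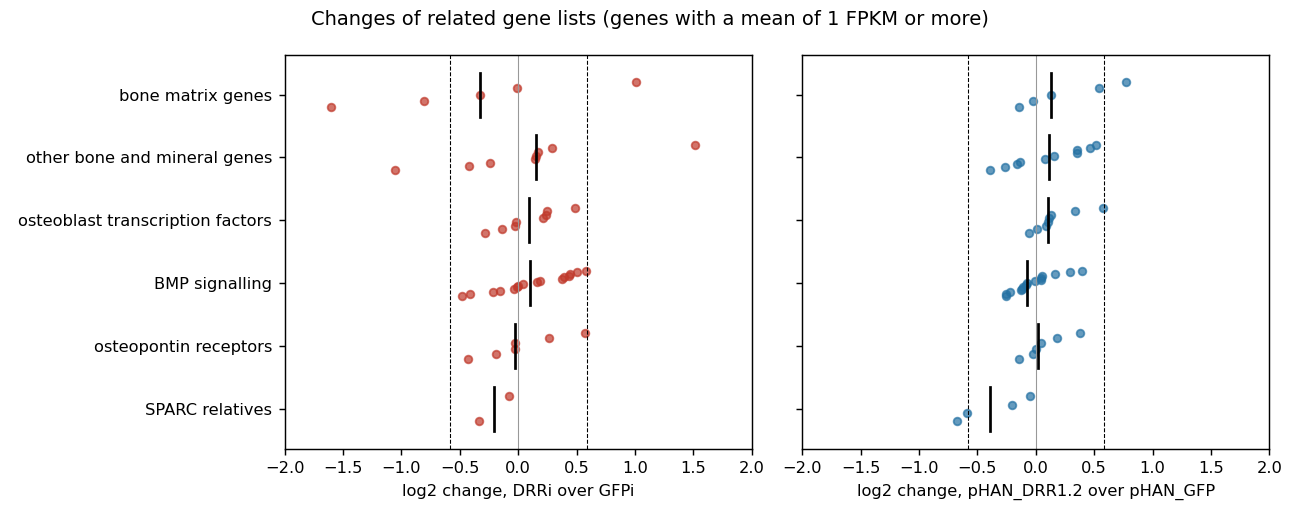
Log2 change of each measured gene (points) and the list's median (bar) in DRRi over GFPi (left) and pHAN_DRR1.2 over pHAN_GFP (right), with dashed lines at 1.5-fold. The bone matrix genes spread widely in DRRi, with Dmp1 at -1.61 and Bglap2 at 1.01, while transcription factors, BMP genes and osteopontin receptors lie inside the lines.

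The chromatin lists were then read within 50 kb of each locus. A MyoD peak in myotubes lay within that distance of 7 of the 9 genes, where 74.8% of all symbols had one. A MyoD peak in myoblasts also lay near 7, against 57.9% of symbols. A MyoG peak in myotubes lay near all 9, against 72.5%. H3K4me1 domains lay near all 9 at each stage, against 80.4% of symbols in myotubes and 82.4% in myoblasts. Presence of a peak within 50 kb was thus common, and the number, position and strength of the peaks say more. The peak score is the authors' own, its definition is not stated in the files, and it serves only to rank peaks within a list.

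Spp1 had more called MyoD peaks in myoblasts than in myotubes. It had 2 MyoD peaks in myotubes and 5 in myoblasts, although the whole lists held 39700 and 18141 peaks. Mepe, with 0 in myotubes and 3 in myoblasts, was the other member with fewer in myotubes, where 4.96% of all symbols had fewer. The Mepe peaks were weak and distant. Their highest score was 88.6, above 23.0% of its list, and they lay 30977 to 44856 bases from the gene. In 6 of 9 members MyoD peaks were more numerous in myotubes, as in 64.4% of symbols, and Ibsp had 0 at either stage. Bglap2 went furthest, with 9 MyoD peaks in myotubes and 0 in myoblasts. Sparc had 9 in myotubes and 3 in myoblasts, Alpl 7 and 3, Sp7 4 and 2, and Dmp1 2 and 1. Runx2 had 16 in myotubes and 10 in myoblasts, in a window of 615284 bases that is the longest of the 9 because of its large shared locus.

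**Figure D4:**
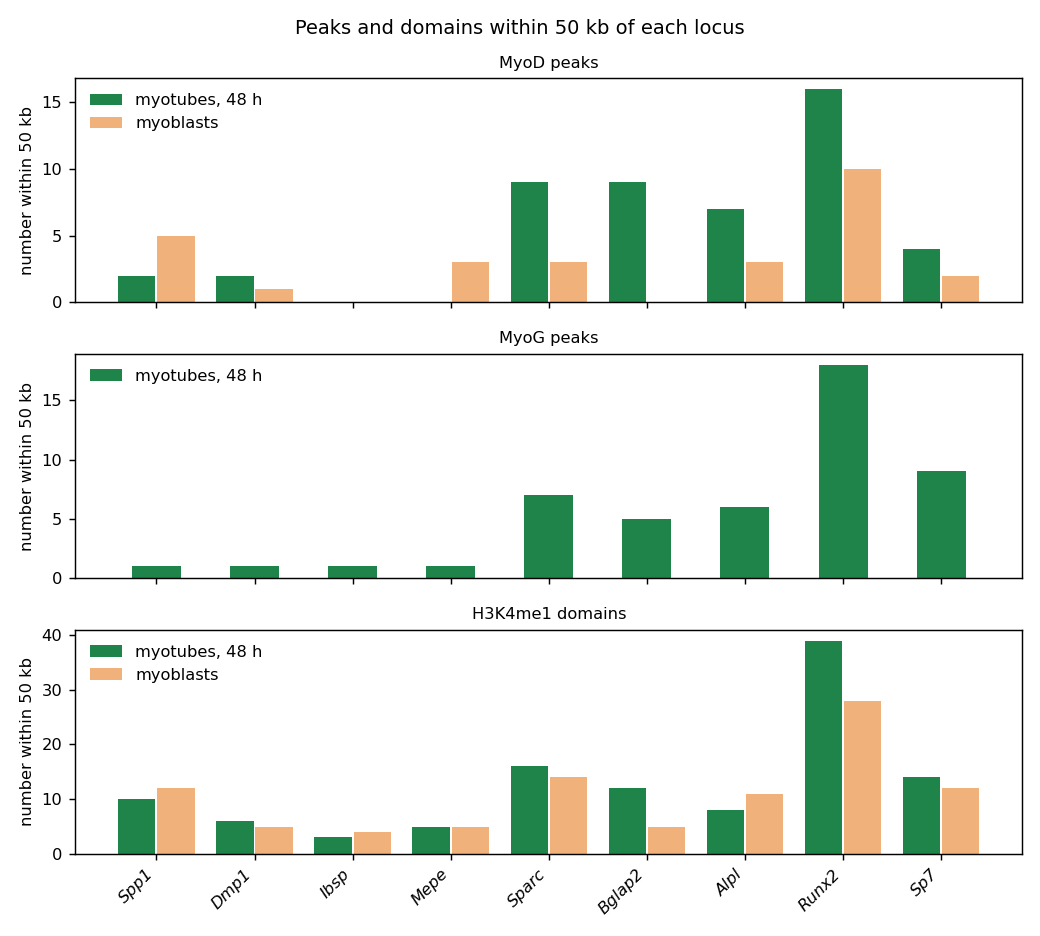
Number of MyoD peaks, MyoG peaks and H3K4me1 domains within 50 kb of each locus, in myotubes (green) and myoblasts (orange), 1 list per bar. Spp1 and Mepe have more MyoD peaks in myoblasts, Bglap2 has 9 in myotubes and 0 in myoblasts, and Runx2 has the most of every kind.

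A MyoD peak covered the gene start of Spp1, Dmp1 and Sparc at both stages. These were 3 of the 6 members that have a known strand and a locus of their own, a question posed after the peaks were seen. Among all such symbols, 12.5% had a MyoD peak over the start in myotubes and 4.73% in myoblasts, and 3.97% at both stages. Among the 5143 of these that averaged 5 FPKM or more in each table, the shares were 21.9%, 8.17% and 6.9%. The 3 members are the 3 most abundant of the 6, and Ibsp, Mepe and Alpl had no peak there. MyoG peaks covered the starts of Dmp1 and Sparc, 2 of 6 members, where 6.85% of such symbols had one and 11.4% of those averaging 5 FPKM or more, and the only MyoG peak within 50 kb of Spp1 lay 12178 bases beyond its far end, with a score of 60.4 that only 0.469% of the MyoG list falls below.

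At the Spp1 start the peak in myotubes ran from -402 to 299 bases (chromosome 5, 104863728 to 104864429), with a score of 203 above 55.1% of its list. In myoblasts it ran from -498 to 408 bases (104863632 to 104864538), with a score of 587 above 82.7% of its list. A second site about 9 kb upstream, outside any gene of the tables, was bound at both stages, with a score of 543 in myotubes (104854358 to 104855061, above 79.5% of its list) and 438 in myoblasts (104854394 to 104855452, above 77.0%). The other 3 myoblast peaks of Spp1 began at positions -35788, -27843 and -8474 from the start. They had scores of at most 137, under the myoblast list's median of 162, and they overlapped no myotube peak. The one at -8474 begins at 104855656, close to the end of the second site's myoblast peak, so whether it is a separate site is unknown. Both of the myotube peaks of Spp1 thus lay on sites that also had a myoblast peak.

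At Dmp1 the start peak was high in every list. In myotubes the MyoD peak ran from -521 to 335 bases (104631115 to 104631971), with a score of 1348 above 92.8% of its list, and in myoblasts from -454 to 334 bases (104631182 to 104631970), with a score of 963 above 90.3%. The MyoG peak there (104631216 to 104631753) had a score of 288, above 75.3% of the MyoG list. A second MyoD peak, found in myotubes alone, began at position -7888 with a score of 360. Sparc had its start peak in myotubes on chromosome 11 at 55232713 to 55234041, with a score of 1220 above 91.7% of the list, and in myoblasts at 55233104 to 55233956 with a score of 125 above 39.3%. Its highest MyoD score in each list lay past its far end instead, 15488 bases away with 1444 in myotubes (55191630 to 55192515) and 760.1 in myoblasts (55191618 to 55192518).

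The bases just upstream of these starts are shown because a MyoD peak covers each of the starts of Spp1, Dmp1 and Sparc, with Ibsp, a neighbour listed at or near 0, beside them. They are RefSeq promoters of build GRCm38.p6, 250 bases up to the gene start on the coding strand, and 7 of the 9 members matched the table by symbol. The start was matched to the files by the distance from it to the gene's end, which equals the mm9 locus length for Spp1 (5943 bases), Dmp1 (11486, its downstream start) and Ibsp (12186). For Sparc the distance is 25922 against a locus of 25580 bases, so its start may differ by as much as the gap. Capitals mark CANNTG, the E-box bound by MyoD, MyoG and other basic helix-loop-helix proteins, and the core bound by RUNX proteins, which reads TGTGGT on one strand and so ACCACA on the other.
Spp1: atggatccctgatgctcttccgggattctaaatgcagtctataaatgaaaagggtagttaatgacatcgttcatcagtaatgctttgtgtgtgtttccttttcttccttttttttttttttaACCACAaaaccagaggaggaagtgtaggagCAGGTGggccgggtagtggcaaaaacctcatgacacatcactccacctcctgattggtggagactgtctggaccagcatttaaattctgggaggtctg
Dmp1: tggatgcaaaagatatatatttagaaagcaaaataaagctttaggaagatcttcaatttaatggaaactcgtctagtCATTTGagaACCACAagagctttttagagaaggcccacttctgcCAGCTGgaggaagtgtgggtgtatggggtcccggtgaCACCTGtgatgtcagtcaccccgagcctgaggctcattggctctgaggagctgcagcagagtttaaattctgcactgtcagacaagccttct
Sparc: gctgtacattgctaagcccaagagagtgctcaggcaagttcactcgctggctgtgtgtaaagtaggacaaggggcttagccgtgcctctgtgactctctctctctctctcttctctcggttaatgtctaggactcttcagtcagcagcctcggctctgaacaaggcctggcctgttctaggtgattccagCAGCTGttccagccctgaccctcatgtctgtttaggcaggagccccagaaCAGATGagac
Ibsp: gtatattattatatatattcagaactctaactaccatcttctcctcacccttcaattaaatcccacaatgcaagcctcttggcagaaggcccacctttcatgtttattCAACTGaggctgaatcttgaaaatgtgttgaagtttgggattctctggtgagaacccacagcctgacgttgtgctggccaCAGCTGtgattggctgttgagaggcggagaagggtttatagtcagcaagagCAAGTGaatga

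These windows stand at chr5:104434861-104435110 (Spp1), chr5:104202367-104202616 (Dmp1), chr11:55420081-55420330 (Sparc, minus strand) and chr5:104299037-104299286 (Ibsp), the others on the plus strand. Spp1 held 1 E-box, CAGGTG, at positions -98 to -93, and ACCACA at -128 to -123. Dmp1 held 3 E-boxes, among them CAGCTG at -129 to -124 and CACCTG at -92 to -87, and ACCACA at -164 to -159. Sparc held 2, with CAGCTG at -60 to -55 and CAGATG at -10 to -5. Ibsp held 3, among them CAGCTG at -62 to -57, yet had no MyoD peak within 50 kb at either stage. Of 32851 promoters in the table, 66.2% held CANNTG in these 250 bases, 13.0% held CAGCTG, 17.2% held CAGGTG on either strand, and 14.0% held the RUNX core on either strand. The E-box alone is thus common, and the narrower forms are themselves E-boxes, included in that count. A match is a description of the letters and not a binding site.

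By number, H3K4me1 domains were fewer in myotubes than in myoblasts at 3 members, where 31.9% of symbols had fewer, and more at 5, where 38.2% had more. Of the 6 members with a known strand and own locus, 3 had a domain over the gene start in myotubes (17.0% of such symbols). In myoblasts 2 had one (17.7%). The member that differed was Sparc, where a myoblast domain stopped 19 bases upstream of the start. Domains lie on a 200 bp grid, so this is not read as a difference between stages. H3K4me1 around Spp1 was narrower in myotubes. Domains that reach its window covered 31600 bases with 1090 ChIP reads in myotubes, against 59200 bases with 3049 reads in myoblasts, or 34.5 against 51.5 reads per kb. The ratio of bases was 0.534 and that of reads 0.357. Among 12760 symbols whose windows averaged 10 kb or more over the 2 stages, the median ratios were 1.12 and 0.934, and 5.9% had a lower ratio of bases than Spp1. Whole domains are counted, so the Spp1 sums include a myoblast domain of 15200 bases that lies mostly outside the window. The ratios and the 5.9% depend on such edge domains, and sums clipped to the window were not computed. Over the whole lists the domains held 8842751 ChIP reads over 235590200 bases in myotubes and 9555012 over 208482400 bases in myoblasts. These read sums cover domains and are not library depths. The whole myotube list thus held fewer reads over more bases. Reads per kb were also lower in myotubes at every member, among them Dmp1 (30.3 against 46.2), whose domains were wider there. The lower reads per kb are therefore not particular to Spp1. At the Spp1 start itself the mark was present at each stage, in a domain of 5600 bases with 191 reads in myotubes (exact 95% Poisson interval 165 to 220.0, counting error only) and one of 7200 bases with 294 reads in myoblasts (261 to 330.0). The domains that differed most in length lay upstream. A myoblast domain of 15200 bases with 836 reads began at position -62529, mostly outside the window and shared with that of Mepe. Myotube domains of 2600, 2400 and 4600 bases with 109, 67 and 102 reads lay within it. Of these, only the one of 4600 bases reaches the Spp1 window and enters its sums. A myoblast domain of 15000 bases with 942 reads began at position -39329, and myotube domains of 4400 and 7200 bases with 162 and 281 reads lay within it.

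Mepe, Alpl, Sp7 and, by less, Ibsp and Runx2 also had narrower H3K4me1 in myotubes, and Bglap2 and Dmp1 had wider. For Mepe the domains covered 13600 bases in myotubes against 20800 in myoblasts, for Alpl 15800 against 28000, and for Sp7 30600 against 49200. A lower ratio of bases was found at 11.2% of symbols for Mepe, 7.13% for Alpl and 9.51% for Sp7, beside 5.9% for Spp1. Ibsp had 5000 bases against 6200, under the average of 10 kb needed for such a share. Mepe and Spp1 share a domain at each stage between their windows, so their values are not independent. Within reach of Bglap2 the domains covered 38600 bases with 1465 reads in myotubes against 12000 bases with 563 reads in myoblasts. The ratio of bases, 3.22, exceeds that of 97.2% of symbols. Most of this lay away from the gene, in a window that also holds Smg5 and Pmf1. The nearest myotube domain, of 1000 bases with 31 reads, was 858 bases away, and the others 13458 bases or more. The nearest myoblast domain was 27780 bases away. Dmp1 had 15800 bases in myotubes against 8600 in myoblasts, a ratio of 1.84 that exceeds that of 86.3% of symbols. At the Dmp1 start a domain of 6000 bases with 197 reads in myotubes (170.0 to 227) stood against one of 3000 bases with 165 reads in myoblasts (141 to 192). Sparc was covered alike, with 58600 bases in myotubes and 57000 in myoblasts. Runx2 had 143800 bases with 5137 reads in myotubes against 165800 bases with 8542 reads in myoblasts, a ratio of bases of 0.867.

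**Figure D5:**
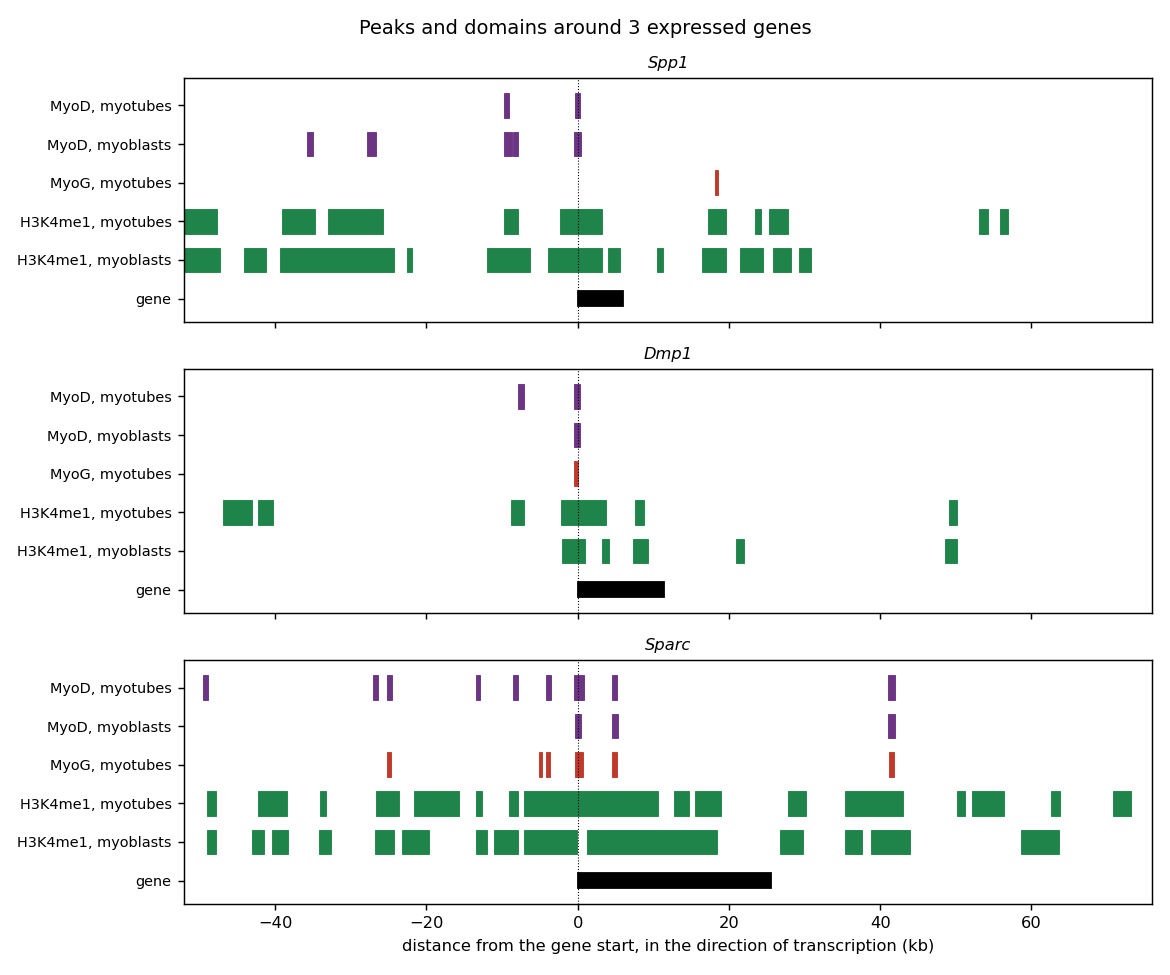
MyoD peaks, MyoG peaks and H3K4me1 domains (coloured blocks) by distance from the gene start in kb along the direction of transcription, for Spp1, Dmp1 and Sparc, with the gene as a black bar. A MyoD peak stands on the dotted start line at both stages in all 3 panels, and the long upstream H3K4me1 blocks of Spp1 are shorter in myotubes.

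Within the 9 windows, the shares of MyoD peaks that overlapped other features were set beside those of the whole lists. Of 49 myotube MyoD peaks, 34.7% overlapped a myoblast peak by 1 bp or more, against 34.1% of the whole list. Of 27 myoblast peaks, 63.0% overlapped a myotube peak, against 73.9%. A myotube H3K4me1 domain was overlapped by 89.8% of these myotube MyoD peaks, against 85.0% of the list, and by 89.6% of the 48 MyoG peaks, against 84.5%. Among myotube MyoD peaks, 2 of 2 at Spp1 and 3 of 9 at Sparc overlapped a myoblast peak. The Bglap2 peaks did not lie at the gene: the nearest was 15539 bases away, within the Pmf1 locus, a gene at 38.4 FPKM in DRRi and 31.2 in GFPi. The highest had a score of 837 at 88198963 to 88199891 on chromosome 3. At Runx2 the highest scores of the shared locus were 1026 for MyoD in myotubes (44791200 to 44792068) and 1308 in myoblasts (44791126 to 44792019), where MyoG had 801. At Alpl, whose RNA was at or near 0, MyoD peaks inside the gene reached a score of 221 in myotubes and 216 in myoblasts.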

How the data were processed

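Members and gene lists were chosen with earlier results of these data known. The authors deposited 2 tables of FPKM per coding sequence with their own p-value and q-value, per the file headers; per the submitters' processing notes TopHat and build mm9 were used, versions not stated. FPKM were summed per symbol (1 library per group, 11 samples in all, 2 of them not analysed here), genes averaging 1 FPKM or more kept, and log2 ratios taken with a pseudocount of 1, which understates changes of weakly expressed genes. Levels are compared within a table, since each was normalized on its own. A call is 1.5-fold, or the authors' q under 0.05.

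Per the file headers, peaks of MyoD and MyoG come from MACS with a deposited score. Whether the 2 runs named in the labels were pooled is unknown. H3K4me1 domains lie on a 200 bp grid and come from SICER, per the submitters' processing notes. Their deposited columns were read, from their layout, as ChIP reads and control reads (each a count), a fold over control, a p-value and an adjusted p-value. Windows reached 50 kb beyond each locus and overlap meant 1 bp or more. Domain bases and reads are those of whole domains reaching a window. Positions are counted from 1.

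Python 3.11.15, numpy 2.4.6, pandas 2.3.3 and scipy 1.17.1 were used, and the steps were tested on simulated data. Named are all members and, from each list, the most abundant gene and those past 1.5-fold with a mean of 5 FPKM or more. Alternatives were the pseudocount, filters, the most abundant coding sequence, median centring, a 2-fold threshold, other windows, higher-valued peaks and a stricter overlap.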

Additional observations from a re-analysis of the deposited data

How the results depend on the processing

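No paired analysis was possible because each group holds 1 library and no test was run. With a mean of 5 FPKM or more, Bglap2 dropped out and the members 1.5-fold or more higher numbered 0 in DRRi and 0 in pHAN_DRR1.2, against 1 in each. At a 2-fold threshold, 1 member was lower in DRRi, against 2, and 0 were higher in pHAN_DRR1.2, against 1. Shares of all genes were not recomputed at these settings. With a window of 10 kb, 5 members had a MyoG peak, where 52.9% of all symbols had one. Within 50 kb it was 9 members and 72.5% of symbols. The other 42 recomputed counts stayed within 1.5 times their value, among them the peaks over gene starts when 1 kb on each side was allowed, a setting chosen after the data were seen. The 48 recomputed log2 changes of the 5 measured members stayed on their side of 1.5-fold, and those past it kept their sign. With a pseudocount of 0.1 FPKM the Bglap2 changes were 1.70 in DRRi and 1.45 in pHAN_DRR1.2, against 1.01 and 0.77, so its loss at 2-fold rests on the pseudocount of 1. Unknown RNA depth and the lack of replicates limit every expression value.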

Other observations

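Genes next to the members were read in the same libraries. Pkd2, the polycystin gene 18404 bases beyond Spp1, had 21.8 FPKM in DRRi against 25.03 in GFPi (log2 change -0.19), and its log2 change in pHAN_DRR1.2 was -0.03. In Supt3h, which shares the Runx2 locus, DRRi had 9.86 FPKM against 9.33 in GFPi. Atox1, the copper chaperone gene 26563 bases from Sparc, had 82.6 FPKM in DRRi, compared with 117 in GFPi (-0.50), and its log2 change in pHAN_DRR1.2 was 0.23. Aaas, 6418 bases from Sp7, had 42.8 FPKM in DRRi and 28.2 in GFPi, a log2 change of 0.58. Near Bglap2, 0610031J06Rik, 49105 bases away, had 30.5 FPKM in DRRi and 46.96 in GFPi, a log2 change of -0.61 that is past 1.5-fold, and its log2 change in pHAN_DRR1.2 was 0.12. Among markers of other mesenchymal cells, Pparg, the adipocyte nuclear receptor, had 9.84 FPKM in DRRi, 10.3 in GFPi, 7.70 in pHAN_DRR1.2 and 7.62 in pHAN_GFP, and Cebpa, a regulator of adipocyte differentiation, had 1.31 in DRRi, 1.34 in GFPi, 2.98 in pHAN_DRR1.2 and 4.15 in pHAN_GFP. The other adipocyte markers were lower: Fabp4 had 0.390 FPKM in DRRi, 0.0651 in GFPi, 0.124 in pHAN_DRR1.2 and 0.0630 in pHAN_GFP, and Adipoq and Plin1 stayed under 0.06. Sox9, a cartilage regulator, had 7.31 FPKM in DRRi, 5.84 in GFPi, 15.4 in pHAN_DRR1.2 and 12.3 in pHAN_GFP, while the cartilage matrix gene Matn3 had 0.720 FPKM in DRRi, 0.274 in GFPi, 0.0777 in pHAN_DRR1.2 and 0.108 in pHAN_GFP. The other cartilage matrix genes, Acan, Col2a1, Col10a1 and Comp, were at or under 0.184 FPKM in every library.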
